A study of Mus musculus with 13 samples.

Results

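Induced cardiomyocyte-like cells (iCMs) made with GMT, a mix of the transcription factors Gata4, Mef2c and Tbx5, were compared between serum-free medium (SF) and medium with fetal bovine serum (FBS). The 4 samples were taken by their titles out of 13 in the series, namely GMT iCMs in SF at 2 and at 4 weeks and GMT iCMs in FBS at 2 and at 4 weeks after transduction, with 1 array for each. Both media therefore had cells with the same 3 factors and the same times, and the SF and FBS arrays of a week form a pair. All of these cells had been sorted for a GFP reporter driven by the cardiac αMHC promoter, so the level of Myh6, which that promoter belongs to, was not independent of the sort. The series as a whole concerns cardiac reprogramming under defined conditions. Further groups were used only where named. They included GMT iCMs in a medium with FGF2, FGF10 and VEGF (FFV) at the same times, and mouse embryonic fibroblasts (MEFs). Mouse hearts were taken at E12 (before birth, embryonic day 12) and at P1 (a day after birth). An alternative fit also used iCMs made from tail-tip fibroblasts with another factor mix, labelled GMTMM, with 1 array in FFV and 1 in FBS. The labels do not name the strain, the age or sex of the donor animals, the cells that received GMT, the purity after sorting, or whether the 2-week and 4-week cells came from separate transductions.

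Serum supplies cultured cells with mitogens, insulin-like growth factors, lysophospholipids and lipoproteins, and cells moved out of it usually divide less and turn down genes that serum factors induce. Reprogramming to a heart muscle state is known to meet resistance from fibroblast programmes that growth factors such as TGF-beta sustain. Heart muscle cells are also known to depend on mitochondrial oxidation more than on glycolysis after birth. Genes of these processes were followed in 42 lists, of which 719 genes were tested.

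Each array gave single-colour intensities on a table scaled to a median of 25, and a value was present for 90.1% to 94.4% of 23473 probes on the 6 GMT arrays. Values under a floor of 1.78, the highest blank level of these arrays, were set to it. A level is given below in these table units for the brightest probe of a gene, and levels of different genes cannot be set against each other. Across 14872 genes, log2 levels correlated at 0.992 between the 2 SF arrays and at 0.988 between the 2 FBS arrays, against 0.975 between SF and FBS at 2 weeks and 0.962 at 4 weeks. These genes share the arrays, so the correlations are descriptions. The FBS array of 4 weeks stood apart from that of 2 weeks in the number of genes that were higher, with 144 genes at least 2-fold higher at 4 than at 2 weeks in SF, against 513 in FBS. Heart muscle markers were detected on these arrays. Tnnt2, cardiac troponin T, had 20704 and 23257 units in SF and 13768 and 13302 units in FBS, and it had 18633 and 28579 units in the E12 and P1 hearts and 42.2 units in MEFs. Myh6, Nppa and Ttn were lower on all 4 arrays than in either heart.

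Many of the same genes differed between SF and FBS in both weeks. At 2 weeks 554 genes (3.73% of those tested) were at least 2-fold higher and 614 (4.13%) at least 2-fold lower in SF than in FBS. At 4 weeks 504 genes (3.39%) were higher and 1098 (7.38%) lower, so that the lower side was larger at 4 weeks. In both weeks 256 genes (1.72%) were at least 2-fold higher, which is 46.2% of the 2-week list and 50.8% of the 4-week list. A further 440 genes (2.96%) were at least 2-fold lower in both weeks, which is 71.7% of the 2-week list but 40.1% of the longer 4-week list. Only 5 genes of those tested were at least 2-fold apart in opposite directions. With 1 array against 1 these counts carry no test. The differences of the 2 pairs, which share no array, correlated across genes at 0.70 (Pearson) and 0.60 (Spearman), with medians over all genes of 0.09 and 0.02 on the log2 scale at 2 and 4 weeks.

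A limma fit to the 6 GMT arrays, with medium and week as terms and 2 residual degrees of freedom, averaged both pairs and asked whether the medium difference exceeded its scatter between weeks. At a Benjamini and Hochberg adjusted p under 0.05, 1069 genes rose (7.19%) and 1044 fell (7.02%) in SF, 14.2% together. All 2113 had the same sign in both pairs, which the fit favours, since a difference that turns between weeks widens the spread. Of the 1044 fallen genes, 14 were at the floor on both SF and both FFV arrays. They passed the filter on dim genes only through the FBS arrays and could not have risen. Ctss and Nebl were at the floor on both SF arrays and a single FFV array, so they also needed the FBS arrays to pass. They are not among the 14, and other such genes were not counted. Of the 1069 risen genes, 0 were at the floor on both FBS and both FFV arrays. The shares of risen and fallen genes are the background for every count of risen or fallen genes below, and rose and fell refer to this fit. At an unadjusted p under 0.05 by limma there were 4429 of the 14872 genes, the background for counts at that level. For counts of mere direction, 6019 of the 14872 genes were higher and 4375 lower in SF in both weeks. The spread is that of medium differences between weeks and not of replicate cultures, which no group had. Most genes named below were picked because they were called. Where their SF and FBS levels do not overlap, this follows largely from that choice. The number of calls rested on the arrays used: 201 genes were called without the FBS array of 4 weeks, 553 without the SF array of 4 weeks, 672 without the FBS array of 2 weeks and 915 without the SF array of 2 weeks. It was 46 when the 2 GMTMM arrays, of iCMs made from tail-tip fibroblasts with another factor mix, joined the fit. It was 0 by limma when the local surround was subtracted from each spot (2496 genes at an unadjusted p under 0.05) and 0 by limma without a filter on dim genes (3929 genes at an unadjusted p under 0.05).

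**Figure D1:**
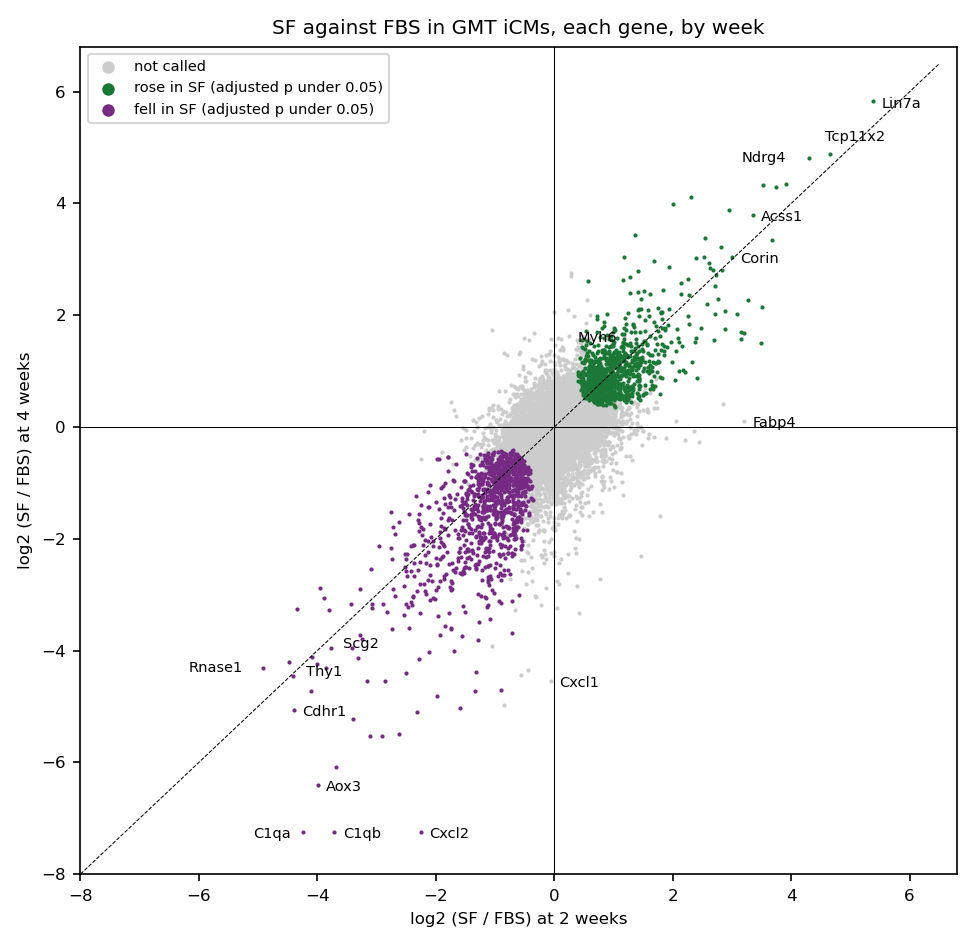
Log2 difference of SF over FBS at 2 weeks (x axis) and at 4 weeks (y axis), 1 point for each of 14872 genes, with genes that rose in green and genes that fell in purple. Most called genes lie near the dashed line of equal differences, which the fit favours. C1qa, C1qb, Cxcl2 and Aox3 lie below it, and Cxcl1 and Fabp4 lie on an axis, apart in a single week.

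The genes furthest up in both weeks were led by Lin7a, a scaffold protein of cell junctions and synapses. It had 146 and 238 units in SF and 3.501 and 4.19 units in FBS, a log2 difference of 5.60 ± 0.18 (SE) with an adjusted p of 3.22e-05 by limma. Its SF levels lay far above both FBS levels, while E12 hearts had 7.51 units and MEFs 6.01. Tcp11x2 had 1412 and 1277 units in SF and 56.3 and 43.1 in FBS (log2 difference 4.77 ± 0.15 (SE)), and it was near the floor in hearts and MEFs, at 2.44 to 4.37 units. Ndrg4, which zebrafish need for growth of the heart, had 3016 and 2939.9 units in SF and 154 and 104 in FBS (log2 difference 4.56 ± 0.17 (SE)). Its SF level also exceeded the 464 and 607 units of E12 and P1 hearts. Corin, the protease that cleaves the precursor of atrial natriuretic peptide, had 2326 and 2429.8 units in SF and 291 and 296 in FBS, against 171 and 299 units in E12 and P1 hearts. The log2 difference was 3.02 ± 0.21 (SE), and the weeks nearly coincided in both media.

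The rest of the 12 genes highest in both weeks held metabolic enzymes, a channel and a signalling subunit. Acss1, the mitochondrial enzyme that activates acetate, had 189 and 370.4 units in SF and 18.5 and 26.8 in FBS. Elovl4, an elongase of very long fatty acids, had 20.6 and 59.3 units in SF and 2.68 and 4.02 in FBS. Galnt9, which starts O-linked sugar chains, had 123 and 87.8 units in SF and 9.69 and 8.61 in FBS. In each of the 3 enzymes the lower SF array was above both FBS arrays, which follows largely from choosing genes far apart in both weeks. Kcnj15, an inwardly rectifying potassium channel, had 346 and 289 units in SF and 25.7 and 14.7 in FBS. Gins3, a subunit of the replication helicase, had 256 and 292 units in SF and 17.04 and 14.3 in FBS, although no gene of the cell cycle list rose. Gng2, a G protein subunit, had 246 and 281 units in SF and 34.7 and 29.98 in FBS. Shisal2b and Igsf23 complete the 12, with log2 differences of 3.93 ± 0.23 (SE) and 2.82 ± 0.16 (SE). Levels in FFV, which share no array with either medium, are given for scale: Lin7a had 92.1 and 138 units and Corin 1775 and 3031 units there.

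Among the 12 genes lowest in both weeks, Thy1, the surface glycoprotein used to mark fibroblasts, had 24.6 and 21.999 units in SF and 522 and 482 in FBS, a log2 difference of -4.43 ± 0.24 (SE) (limma adjusted p = 0.000187). MEFs had 1562 units of Thy1 and E12 hearts 42.5, so the SF level was under that of the E12 heart array. In bulk samples such as these, fewer cells of a type and less RNA per cell cannot be told apart. Scg2, secretogranin II, which is stored in secretory granules, had 156 and 148 units in SF and 2126 and 2309 in FBS (log2 difference -3.87 ± 0.14 (SE), limma adjusted p = 5.58e-05). Gatm, the rate-limiting enzyme of creatine synthesis, had 2.93 and 7.44 units in SF and 65.4 and 137 in FBS. Mstn, myostatin, which limits muscle growth, had 4.05 and 7.27 units in SF and 69.3 and 125 in FBS. For all 4 genes the FBS arrays lay above both SF arrays, which follows largely from choosing genes far apart in both weeks.

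Wnt16, a Wnt ligand, had 9.74 and 9.83 units in SF and 141 and 194 in FBS. Phlda2, an imprinted gene that restrains placental growth, had 10.4 and 17.6 units in SF and 179 and 465 in FBS. Emb, a partner of lactate transporters, had 2.28 and 3.72 units in SF and 36.7 and 70.5 in FBS. Cdhr1, a cadherin-related protein of photoreceptors, Rnase1, a secreted ribonuclease, and Aox3, an aldehyde oxidase, were all within 2.09 to 3.72 units in SF, close to the floor. In FBS Cdhr1 had 51.3 and 69.7 units, Rnase1 72.2 and 73.4 units and Aox3 56.7 and 232 units. C1qa and C1qb, chains of complement C1q made mainly by macrophages, close the list and are given with the immune genes.

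**Figure D2:**
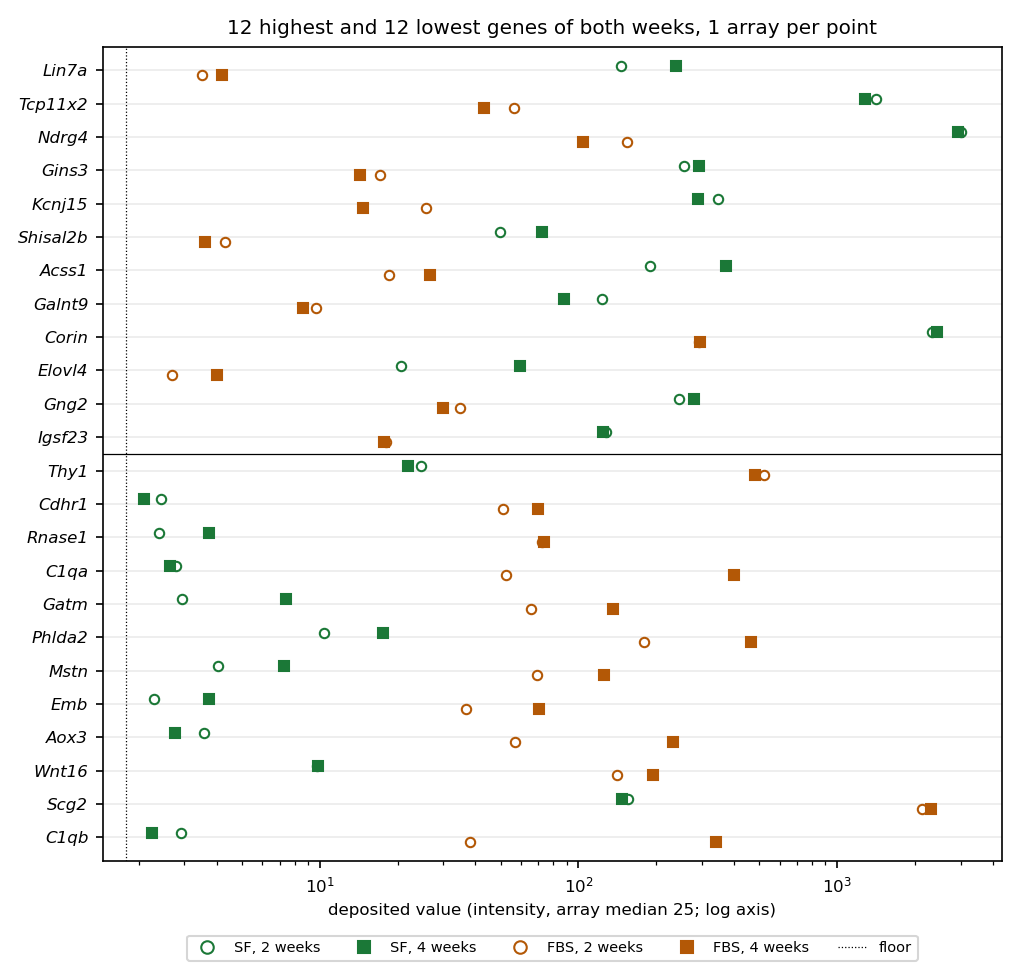
Deposited value on a log axis of the 12 genes highest (above the line) and the 12 lowest (below it) in SF over FBS in both weeks, with SF in green, FBS in orange, 2 weeks as open circles and 4 weeks as filled squares. No gene has an SF point between its FBS points, which follows largely from choosing genes far apart in both weeks. The weeks of a medium lie close together except for genes such as C1qa, C1qb and Aox3 in FBS.

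Sarcomere genes, which build the contractile filaments, rose more often than they fell. Of 25 tested, 9 rose, 3 fell and 13 were not called, with list medians of 0.58 at 2 weeks and 0.56 at 4 weeks. Myoz2, a Z-disc protein that binds calcineurin, had 1970.1 and 2458 units in SF and 565 and 587 in FBS (log2 difference 1.93 ± 0.15 (SE), limma adjusted p = 0.000591). Ttn, the giant elastic filament, had 1226 and 828 units in SF and 379 and 273 in FBS. Myom2, which crosslinks thick filaments at the M band, had 2319.8 and 2426 units in SF and 1261 and 884 in FBS. In these 3 genes no SF array lay below an FBS array, which follows largely from their being called. Tnnc1, the calcium-binding troponin, had 5885 and 6041 units in SF and 2825 and 2643 in FBS. Mybpc3, the cardiac myosin-binding protein, had 824 and 988 units in SF and 412 and 436 in FBS. Tnnt2, Myl3, Cryab and Tnni3 rose by log2 differences of 0.70 to 1.04.

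The troponin I genes went separate ways. Tnni3, the form of the mature heart, had 2034 and 2157 units in SF and 719 and 1449.8 in FBS. Tnni1, the slow skeletal form that the fetal heart also uses, fell, with 205 and 186 units in SF and 481 and 589.6 in FBS (log2 difference -1.45 ± 0.17 (SE)). Des, the muscle intermediate filament desmin, also fell, at 345 and 334 units in SF and 632 and 696 in FBS. Nebl, a Z-disc relative of nebulin, lay at the floor on both SF arrays and at 2.88 and 4.93 units in FBS. In FFV it was at the floor at 2 weeks and at 2.51 units at 4 weeks. Nebl, counted among the fallen sarcomere genes, therefore needed the FBS arrays to pass the filter on dim genes and could not be higher in SF. Myh6, the αMHC gene whose promoter drove the sorting reporter, was not called (limma adjusted p = 0.0796): it had 1459.9 and 3558 units in SF and 1223 and 1151 in FBS, so its pairs were 0.26 apart at 2 weeks and 1.63 at 4 weeks on the log2 scale. Its level was 4020.5 units in FFV at 4 weeks and 3917 in E12 hearts.

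Calcium-handling genes, which release and restore the calcium of each beat, showed 1 call in 18 tested, against 7 at an unadjusted p under 0.05 by limma. Over all 14872 genes tested, 4429 were at that unadjusted level. The called gene was S100a1, a calcium sensor that acts on the release channel, with 779 and 1035 units in SF and 564 and 606 in FBS. Atp2a2, the calcium pump of the sarcoplasmic reticulum, had 1930.2 and 3124 units in SF and 3406 and 4065 in FBS (limma adjusted p = 0.104). Ryr2, the calcium release channel, had 63.5 and 89.2 units in SF and 36.98 and 73.1 in FBS (limma adjusted p = 0.089). Levels of Ryr2 overlapped between the media, since the FBS array of 4 weeks exceeded the SF array of 2 weeks. Sln, a small inhibitor of the pump, had 34.3 and 30.5 units in SF and 47.8 and 65.01 in FBS and was not called.

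Among 16 channel and junction genes 4 fell and 1 rose. Kcnj8, the pore of a channel that senses ATP, had 6.503 and 10.5 units in SF and 96.7 and 87.9 in FBS (log2 difference -3.48 ± 0.23 (SE)). Kcnip2, the subunit of the transient outward current, had 4.17 and 5.55 units in SF and 15.1 and 19.4 in FBS. Gja1, connexin 43 of gap junctions, had 625 and 389.9 units in SF and 1824 and 1483 in FBS. The difference of Gja1 was -1.74 ± 0.16 (SE) in these values and 0.018 when the local surround was subtracted, so its direction depended on that step. Kcnh2, the rapid delayed rectifier, fell as well, with 130.1 and 124 units in SF and 212 and 256 in FBS. Kcnq1, the slow delayed rectifier, rose, with 24.3 and 30.2 units in SF and 8.40 and 7.99 in FBS.

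Of 21 cardiac regulators tested, among them transcription factors and their cofactors, none rose, 3 fell and 18 were not called. Tbx20, a T-box factor of the heart, had 14.8 and 16.1 units in SF and 53.6 and 106 in FBS (log2 difference -2.29 ± 0.24 (SE)). Hopx, an atypical homeodomain protein, had 59.4 and 67.97 units in SF and 167 and 216 in FBS. Mef2a, a relative of the transduced Mef2c, had 67.04 and 89.8 units in SF and 103 and 172 in FBS. All 3 were lower in SF in both weeks. Of the transduced factors, Gata4 had 5951 and 5862 units in SF and 3041 and 4089 in FBS and rose (limma adjusted p = 0.0417). Tbx5 had 3265 and 3346 units in SF and 1623 and 2638 in FBS and was not called (limma adjusted p = 0.053). Both were far above E12 hearts, at 28.2 and 63.7 units, and it is unknown from the labels if their probes also detect the vector. Mef2c, Nkx2-5 and Actc1 were not analysed here.

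Natriuretic peptides, hormones that heart muscle secretes under load, rose with Corin. Nppa had 2488 and 3751 units in SF and 1059 and 2422 in FBS (log2 difference 0.93 ± 0.23 (SE), limma adjusted p = 0.0373). Nppb had 767 and 859 units in SF and 314 and 631 in FBS (log2 difference 0.87 ± 0.21 (SE)). Within each week SF was higher for both peptides, and the FBS array of 4 weeks lay between the FBS array of 2 weeks and the SF array of 4 weeks. Of 5 genes in this list 3 rose and none fell.

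**Figure D3:**
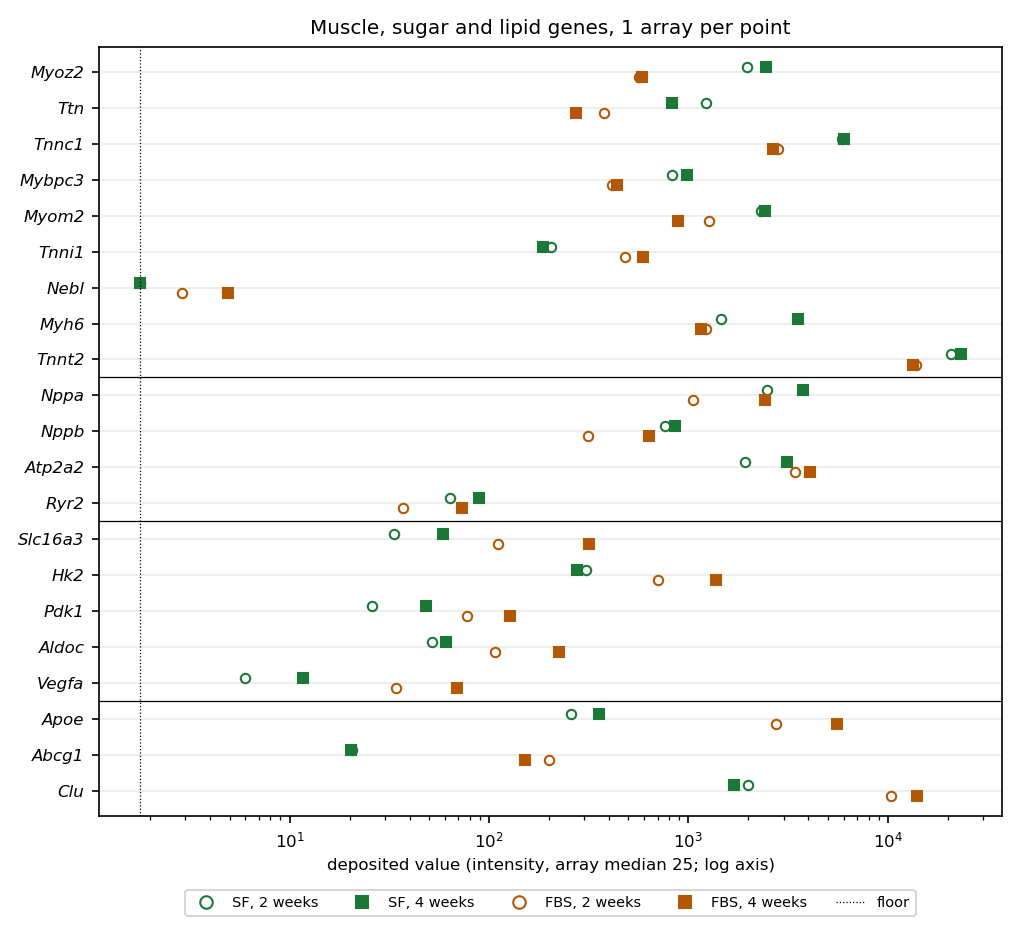
Deposited value on a log axis for sarcomere genes, natriuretic and calcium genes, glycolytic and hypoxia-responsive genes, and lipid carriers, in blocks from top to bottom, with SF in green, FBS in orange, 2 weeks as open circles and 4 weeks as filled squares. SF points lie to the right for Myoz2 to Myom2 and to the left for Tnni1, for the sugar genes and for Apoe, Abcg1 and Clu.

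Glycolysis genes fell and none rose. Of 24 tested 10 fell, with list medians of -0.53 at 2 weeks and -0.58 at 4 weeks. In both weeks 16 of the 24 were lower in SF, against 4375 of all 14872 genes tested. Hk2, hexokinase 2, which traps glucose in the cell, had 306 and 277 units in SF and 701 and 1378 in FBS (log2 difference -1.76 ± 0.26 (SE), limma adjusted p = 0.00663). Slc16a3, the transporter that exports lactate, had 33.5 and 58.5 units in SF and 111 and 317 in FBS. Pdk1, a kinase that keeps pyruvate out of mitochondria, had 25.9 and 48.3 units in SF and 77.8 and 128 in FBS. In each of these the higher SF array lay below the lower FBS array, which follows largely from their being called. Aldoc, an aldolase, had 51.6 and 60.5 units in SF and 107 and 225 in FBS. Pgk1, phosphoglycerate kinase, a step that yields ATP, had 1885 and 2250.2 units in SF and 3259 and 4736 in FBS. Slc16a1, Slc2a3, Pfkfb3, Pkm and Pfkl fell, with log2 differences of -1.29 to -0.62. Slc2a1, the common glucose transporter, was not called, at 72.7 and 77.7 units in SF and 87.6 and 159 in FBS (limma adjusted p = 0.0809). The FBS levels of Hk2, Slc16a3 and Aldoc were also higher at 4 weeks than at 2 weeks.

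Hypoxia-responsive genes, many of which are targets of the factor HIF, fell in 6 of 15 tested and rose in none. Vegfa, the angiogenic growth factor, had 6.001 and 11.6 units in SF and 34.2 and 68.96 in FBS (log2 difference -2.54 ± 0.17 (SE), limma adjusted p = 0.000405). Adm, the vasodilator peptide adrenomedullin, had 30.9 and 24.6 units in SF and 65.5 and 88.4 in FBS. Ankrd37 had 8.502 and 13.1 units in SF and 22.5 and 36.5 in FBS. The media did not overlap for any of the 3, which follows largely from their being called. Ddit4, an inhibitor of mTOR signalling, had 25.4 and 32.1 units in SF and 100.3 and 47.8 in FBS, with the wider gap at 2 weeks. Mxi1 and Ndrg1 fell, with log2 differences of -1.14 and -0.63. The labels do not give the oxygen level of the cultures.

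HIF is known to bind the core letters ACGTG. Among the 10 glycolysis genes that fell, 9 had a window of 250 bases before the start in RefSeq (mouse build GRCm38.p6), and 5 of the 9 held ACGTG on either strand (55.6%). It stood in 4 of 13 windows of the 14 glycolysis genes not called (30.8%) and in 19.8% of the 11893 windows of all genes tested. A match is only a run of letters and says nothing of binding. The windows of Hk2 (chr6:82774455-82774704, minus strand), Slc16a3 (chr11:120948817-120949066, plus strand) and Pgk1 (chrX:106186850-106187099, plus strand) are shown as 3 of the 5 that hold these letters, and the other 4 of the 9 hold none, with ACGTG or its reverse complement CACGT in capitals.
Hk2: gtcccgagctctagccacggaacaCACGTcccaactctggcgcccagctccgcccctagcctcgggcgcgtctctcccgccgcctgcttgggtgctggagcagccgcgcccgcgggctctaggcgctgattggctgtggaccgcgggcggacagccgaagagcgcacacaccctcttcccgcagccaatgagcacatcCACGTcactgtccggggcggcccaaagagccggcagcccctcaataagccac
Slc16a3: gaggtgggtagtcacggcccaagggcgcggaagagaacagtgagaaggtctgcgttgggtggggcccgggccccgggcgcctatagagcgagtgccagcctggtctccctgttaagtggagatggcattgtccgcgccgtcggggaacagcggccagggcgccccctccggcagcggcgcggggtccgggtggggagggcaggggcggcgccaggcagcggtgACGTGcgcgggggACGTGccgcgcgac
Pgk1: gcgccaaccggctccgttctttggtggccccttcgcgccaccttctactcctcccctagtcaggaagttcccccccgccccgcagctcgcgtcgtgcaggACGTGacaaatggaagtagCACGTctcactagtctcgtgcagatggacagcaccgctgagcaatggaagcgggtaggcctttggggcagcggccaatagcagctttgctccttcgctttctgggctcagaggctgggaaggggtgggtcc
Each of these 3 windows held the letters 2 times.

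Oxidative phosphorylation genes, which code for the respiratory chain, rose in 5 and fell in 1 of 36 tested, with medians of 0.24 and 0.18. In both weeks 23 of the 36 were higher in SF, against 6019 of all 14872 genes tested. Ndufb8, a subunit of complex I, had 3620.2 and 3509 units in SF and 1609 and 1759 in FBS (log2 difference 1.08 ± 0.15 (SE)). Atp5d, a subunit of ATP synthase, had 7648 and 6521 units in SF and 3493 and 4392 in FBS. Ndufb9, another subunit of complex I, rose by 0.78 ± 0.16 (SE) in these values but was at -0.54 when the local surround was subtracted. Cox8b, a muscle form of a cytochrome oxidase subunit, fell, with 9.36 and 11.1 units in SF and 23.4 and 43.6 in FBS. The fall of Cox8b was larger than any of the 5 rises.

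Genes of fatty acid uptake and oxidation were divided, with 4 risen and 6 fallen of 32 tested. Cpt1b, which carries fatty acids into muscle mitochondria, had 206 and 260.3 units in SF and 89.3 and 72.2 in FBS (log2 difference 1.53 ± 0.20 (SE)). The oxidation enzymes Ech1, Acaa2 and Acadl rose by 0.58 to 0.69 on the log2 scale. Lpl, the lipase that frees fatty acids from circulating lipoproteins, fell, with 281 and 467 units in SF and 1233 and 2211 in FBS (log2 difference -2.19 ± 0.15 (SE), limma adjusted p = 0.000401). Plin2, the coat of lipid droplets, had 361 and 332 units in SF and 539 and 675 in FBS. Ucp2, a mitochondrial carrier, had 33.03 and 31.6 units in SF and 89.5 and 183 in FBS. The fallen genes therefore included those of lipoprotein and droplet lipid, beside Etfdh, Hadh and Ppargc1a.

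Lipid carriers and sterol efflux genes fell in 5 of 13 tested and rose in none, and 3 fell in the fit without the FBS array of 4 weeks. Apoe, the apolipoprotein that carries cholesterol out of cells, had 258 and 358 units in SF and 2743 and 5539.5 in FBS (log2 difference -3.68 ± 0.21 (SE), limma adjusted p = 0.000219). Abcg1, a sterol exporter, had 20.5 and 20.3 units in SF and 199 and 152 in FBS. Clu, the secreted chaperone clusterin, had 1984 and 1697 units in SF and 10398 and 13962 in FBS. SF and FBS did not overlap in these 3, which follows largely from their being called. Soat1, which stores cholesterol as esters, had 17.9 and 28.5 units in SF and 61.97 and 76.9 in FBS. Abca1, another exporter, fell, with a log2 difference of -0.79 ± 0.20 (SE).

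Of 17 sterol synthesis genes, which cells raise when sterol is short, none was called by limma and 3 had an unadjusted p under 0.05. Of all 14872 genes tested, 4429 had such a p by limma. Insig1, which holds back sterol synthesis, had 33.7 and 30.6 units in SF and 34.9 and 59.6 in FBS, and Idi1 had 78.9 and 88.7 units in SF and 152 and 146 in FBS. Fatty acid synthesis was mixed, with 3 risen and 3 fallen of 11. Scd1, the desaturase that makes oleate, had 3746 and 4883 units in SF and 2025 and 1201 in FBS (log2 difference 1.46 ± 0.33 (SE)). Fasn, fatty acid synthase, had 359 and 386 units in SF and 242 and 254 in FBS. Acly, which supplies the same pathway with acetyl-CoA, fell, at 72.8 and 83.6 units in SF and 109 and 136 in FBS. Acaca rose, and Me1 and Fads2 fell.

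Of 12 genes of creatine and muscle energy 4 rose and 3 fell. Gatm, which makes the creatine precursor, fell as given above, while Slc6a8, the transporter that takes creatine up, had 578 and 474 units in SF and 241 and 289 in FBS and rose (log2 difference 0.99 ± 0.20 (SE)). Ckb, the brain creatine kinase, had 1642 and 925 units in SF and 2218 and 2755 in FBS and fell. Mb, the muscle oxygen store myoglobin, had 47.9 and 64.9 units in SF and 229 and 223 in FBS and fell, with a log2 difference of -2.02 ± 0.29 (SE). Gatm and Slc6a8 thus had opposite signs. Ak1 and Acss2 rose with Acss1.

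Cell cycle genes fell in 13 of 27 tested and rose in none, with medians of -0.68 at 2 weeks and -0.97 at 4 weeks. Mki67, the marker of dividing cells, had 25.3 and 16.4 units in SF and 40.6 and 61.3 in FBS (log2 difference -1.29 ± 0.28 (SE), limma adjusted p = 0.0245). Cdk1, the mitotic kinase, had 61.8 and 28.3 units in SF and 129.7 and 186 in FBS. Top2a, which untangles DNA, had 33.03 and 16.2 units in SF and 68.5 and 122 in FBS. Each was lower in SF at 4 weeks than at 2 weeks and higher in FBS at 4 weeks than at 2 weeks, so the pairs lay further apart at 4 weeks. Bub1, a spindle checkpoint kinase, had 4.42 and 2.52 units in SF and 9.78 and 21.1 in FBS. The replication genes Pcna, Mcm3 and Mcm6 fell, with log2 differences of -0.83 to -1.24. E12 hearts had 611 units of Mki67 and MEFs had 179, above all 6 GMT arrays.

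Of 14 genes that halt the cycle or answer p53, 3 rose and 1 fell. Ccng1, a p53 target, had 4646 and 4299 units in SF and 2948 and 2194 in FBS. Zmat3, another p53 target, had 378 and 327 units in SF and 215 and 195 in FBS. Phlda3, which p53 also induces, rose by 0.63 ± 0.15 (SE). Plk2 fell, at 142 and 123 units in SF and 197 and 327 in FBS. Cdkn1a, the kinase inhibitor p21, was not called: its levels were 2629 and 2568 units in SF and 2093 and 1475 in FBS (limma adjusted p = 0.149).

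Promoters of G2 and M phase genes are known for CCAAT boxes. Of the 13 cell cycle genes that fell, 12 had a window of 250 bases before the start, and 10 of the 12 held CCAAT on either strand (83.3%). It stood in 6 of 10 windows of the 14 cell cycle genes not called (60%) and in 35.5% of all windows, so both kinds of cell cycle gene held it more often than genes at large. The windows of Cdk1 (chr10:69352913-69353162, minus strand) and Top2a (chr11:99024190-99024439, minus strand), taken from RefSeq on GRCm38.p6, are shown because they hold several copies, with CCAAT or its reverse complement ATTGG in capitals.
Cdk1: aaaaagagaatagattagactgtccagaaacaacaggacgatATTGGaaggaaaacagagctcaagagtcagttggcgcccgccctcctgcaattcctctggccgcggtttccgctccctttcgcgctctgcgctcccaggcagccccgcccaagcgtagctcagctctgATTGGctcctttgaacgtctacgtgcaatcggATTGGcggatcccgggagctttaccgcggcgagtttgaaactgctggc
Top2a: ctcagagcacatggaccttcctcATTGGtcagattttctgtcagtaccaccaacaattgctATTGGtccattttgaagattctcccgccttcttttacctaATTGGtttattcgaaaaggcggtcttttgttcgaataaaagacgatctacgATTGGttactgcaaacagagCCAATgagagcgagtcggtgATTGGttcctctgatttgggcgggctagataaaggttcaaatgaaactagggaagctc
The Cdk1 window held 3 copies and the Top2a window 6.

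Immediate early genes, which serum induces within minutes to hours, had list medians of the log2 difference of 0.00 at 2 weeks and -0.98 at 4 weeks. Of 23 tested 4 fell and none rose. Jun, a subunit of the AP-1 factor, had 354 and 332 units in SF and 859.8 and 1749 in FBS (log2 difference -1.84 ± 0.25 (SE), limma adjusted p = 0.00513). Fos, its partner, had 2341 and 1998 units in SF and 3412 and 8234 in FBS. Junb and Ier2 fell, with log2 differences of -1.43 and -1.37. The FBS array of 4 weeks was the high one for Jun and Fos, and the log2 difference of 4 over 2 weeks had a list median of -0.41 in SF, with 0 of 23 genes at least 2-fold higher, against a median of 1.01 and 12 such genes in FBS. Whether the handling of that array's cells plays a part was not tested.

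**Figure D4:**
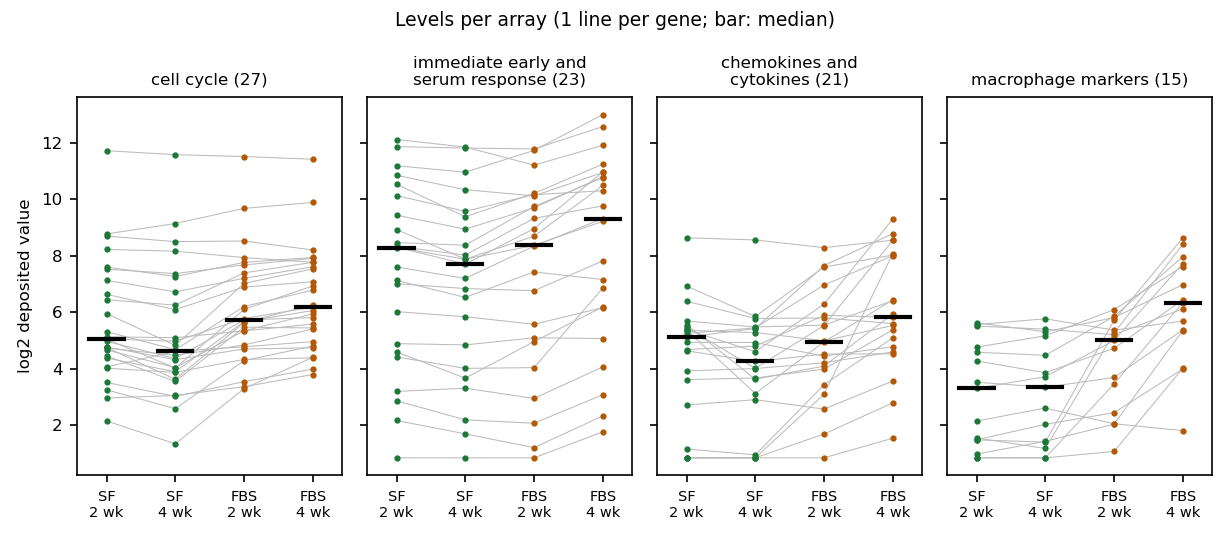
Log2 deposited value of each gene (grey line) on the 4 arrays for cell cycle, immediate early, chemokine and macrophage genes, SF in green and FBS in orange, with the list median as a bar. The median is highest on the FBS array of 4 weeks in all 4 lists, and the SF arrays of both weeks lie close together for macrophage genes.

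Actin cytoskeleton genes, many of them targets of the serum response factor SRF, had only risen calls, while immediate early genes had only fallen ones. The actin median was higher at 2 weeks than at 4 weeks, and the immediate early median was below that of 2 weeks at 4 weeks. Of 22 tested 7 rose and none fell, with medians of 0.73 at 2 weeks and 0.20 at 4 weeks. Zyx, zyxin of focal adhesions, had 1778 and 1508 units in SF and 519 and 813 in FBS (log2 difference 1.33 ± 0.23 (SE), limma adjusted p = 0.0117). Tpm2, a tropomyosin, had 1885 and 729 units in SF and 545 and 483 in FBS. Cnn2, a calponin, had 7319 and 4707 units in SF and 2766 and 3105 in FBS. Vcl, vinculin, had 3114 and 2889.8 units in SF and 1568 and 1601 in FBS. Pdlim7, Acta2 and Lmod1 rose by 0.74 to 0.94. Both SF arrays lay above both FBS arrays in these genes, which follows largely from their being called. Apart from Lmod1 the gap was wider at 2 weeks.

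Genes of the insulin and FoxO response, which shift with insulin supply, were divided, with 3 risen and 3 fallen of 22. Gadd45a, a stress-induced FoxO target, had 50.02 and 64.5 units in SF and 133 and 272 in FBS (log2 difference -1.74 ± 0.20 (SE)). Trim63, the muscle ubiquitin ligase MuRF1, had 6.25 and 15.3 units in SF and 12.9 and 25.9 in FBS and fell. Klf15, a metabolic regulator, had 37.2 and 42.1 units in SF and 22.02 and 18.2 in FBS and rose, as did Tsc22d3, a glucocorticoid-induced gene, at 171 and 139 units in SF and 64.1 and 92.7 in FBS. Igf1r, the receptor of insulin-like growth factors, rose by 0.65 ± 0.15 (SE). Binding proteins for these growth factors fell in 4 of 6. Igfbp5 had 32.5 and 46.5 units in SF and 325 and 814 in FBS (log2 difference -3.73 ± 0.28 (SE), limma adjusted p = 0.000591). Igfbp3 had 15.002 and 16.1 units in SF and 80.03 and 96.4 in FBS, and Igfbp4 had 11.1 and 12.1 units in SF and 23.5 and 77.03 in FBS. Igfbp7 fell, with a log2 difference of -0.74 ± 0.18 (SE), so the receptor was up while these 4 carriers were down.

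Of 16 genes of FGF and ERK signalling, among them ligands and the feedback inhibitors the pathway induces, 4 fell and none rose. Dusp6, a phosphatase that switches ERK off, had 625 and 545 units in SF and 1439.99 and 1664 in FBS (log2 difference -1.41 ± 0.19 (SE)). Spry4, a receptor inhibitor, had 4.75 and 3.44 units in SF and 7.45 and 13.6 in FBS, and Spry1 had 3.63 and 3.14 units in SF and 5.90 and 8.35 in FBS. Fgf7, a ligand, fell, with a log2 difference of -0.83 ± 0.20 (SE).

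TGF-beta and activin genes fell in 5 and rose in 1 of 20. Tgfbi, a matrix protein named for its induction by TGF-beta, had 13.1 and 12.6 units in SF and 56.7 and 204 in FBS (log2 difference -3.07 ± 0.48 (SE), limma adjusted p = 0.00856). Fst, the activin antagonist follistatin, had 37.3 and 43.1 units in SF and 128 and 100.3 in FBS. Bmp2 and Bmp4, ligands of the same superfamily, and Id1, a target of BMP signals, fell, with log2 differences of -1.30, -0.97 and -1.21. Tgfb3, a TGF-beta ligand, rose, with 479 and 555 units in SF and 220.1 and 246 in FBS. Tgfbi differed more at 4 weeks, while Tgfb3 was nearly equal in both pairs.

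Wnt genes fell in 5 and rose in 1 of 20. Dkk2, a modulator of Wnt receptors, had 7.70 and 8.02 units in SF and 43.8 and 41.4 in FBS (log2 difference -2.44 ± 0.20 (SE), limma adjusted p = 0.000719). Sfrp1, a secreted Wnt binder, had 102 and 113 units in SF and 317 and 426 in FBS. The ligand Wnt4 rose, at 17.8 and 19.8 units in SF and 5.06 and 10.8 in FBS. The target Ccn4, the receptor Fzd4 and the ligand Wnt5a fell, with log2 differences of -0.88, -0.85 and -0.70. Antagonists and ligands were therefore both among the fallen genes.

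Fibroblast and matrix genes fell in 13 and rose in 2 of 39, with medians of -0.02 at 2 weeks and -1.16 at 4 weeks. Spp1, osteopontin, had 771 and 792 units in SF and 2871 and 3996 in FBS (log2 difference -2.12 ± 0.17 (SE), limma adjusted p = 0.000758). Fbln1, a matrix fibulin, had 9.62 and 7.24 units in SF and 34.3 and 44.7 in FBS. Thbs2, thrombospondin 2, had 43.8 and 45.9 units in SF and 98.996 and 379 in FBS. Dcn and Lum, collagen-binding proteoglycans, fell, with log2 differences of -1.67 and -1.75. Itga8, an integrin subunit, rose, with 621 and 526 units in SF and 162 and 121 in FBS, and so did Vim, the filament vimentin, at 21924 and 17899 units in SF and 13394 and 10369 in FBS. Postn, periostin, was not called, at 19.7 and 19.7 units in SF and 25.7 and 45.3 in FBS (limma adjusted p = 0.0957). The log2 difference of 4 over 2 weeks had a list median of -0.24 in SF, against 0.70 in FBS.

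Collagen genes fell in 3 of 16, with medians of -0.05 and -0.72. Col16a1 had 40.04 and 38.3 units in SF and 88.5 and 193 in FBS. Col1a1, the main chain of fibrillar collagen, had 113 and 87.3 units in SF and 183 and 291 in FBS (limma adjusted p = 0.0409). MEFs had 4583 units of Col1a1, far above all 6 GMT arrays. Col1a2, its partner chain, was not called, at 391 and 509.7 units in SF and 533 and 1707 in FBS. Col5a2 fell, with a log2 difference of -0.76 ± 0.19 (SE).

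**Figure D5:**
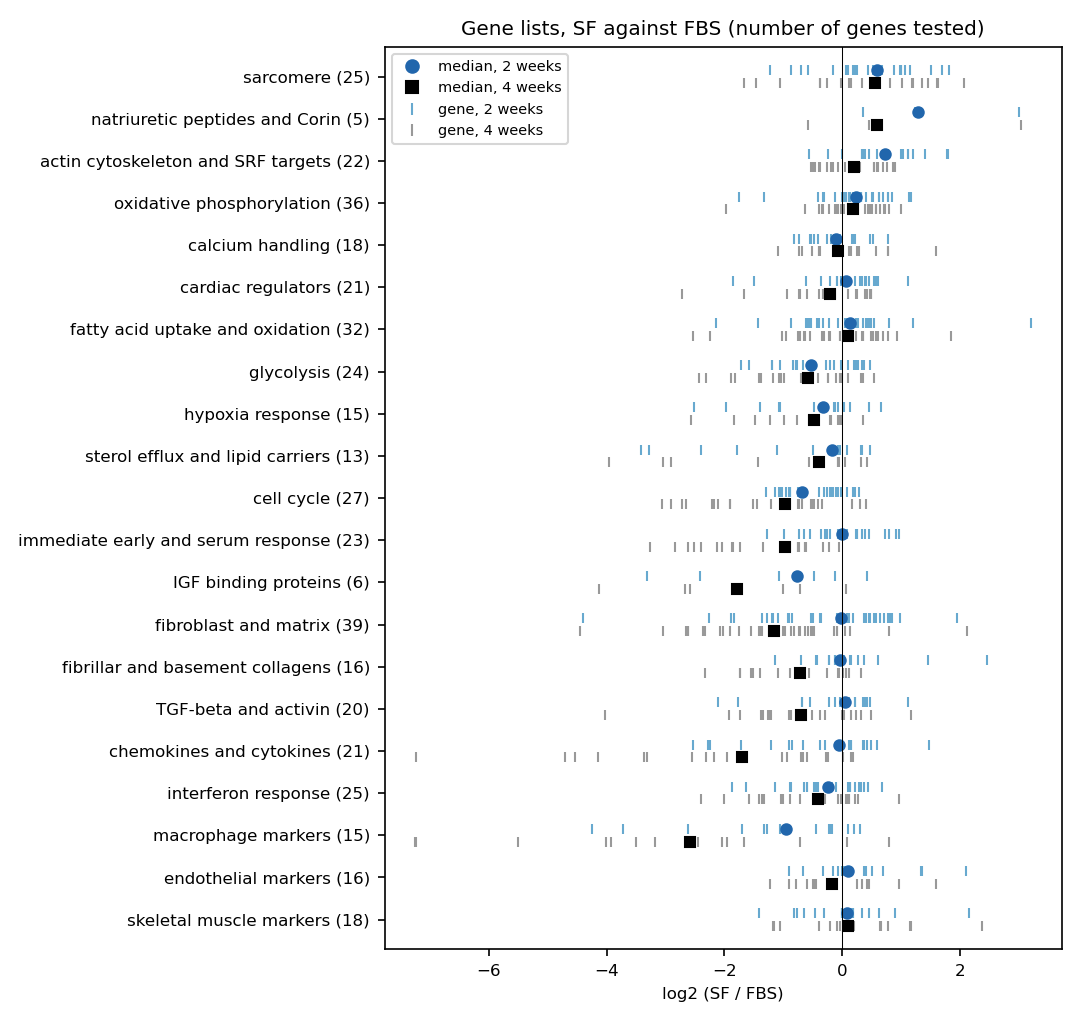
Log2 difference of SF over FBS for the genes of 21 lists, each tick a gene, with the list median at 2 weeks as a blue circle and at 4 weeks as a black square. Sarcomere medians lie right of 0 in both weeks, glycolysis and cell cycle medians left of 0 in both, and matrix, chemokine and immediate early medians near 0 at 2 weeks and left of it at 4 weeks.

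Macrophage markers fell in 7 of 15 tested and rose in none, and 4 fell in the fit without the FBS array of 4 weeks. One of the 7, Ms4a7, passed the filter on dim genes only through the FBS arrays and so had to differ; without it 6 of 14 fell. The summed level, in which the brightest probes weigh most, was 252 and 253 units in SF against 448 and 1927 in FBS. These cells had been sorted for the αMHC reporter, and the labels do not give the purity after sorting. C1qa had 2.77 and 2.63 units in SF and 52.3 and 398 in FBS (log2 difference -5.74 ± 0.75 (SE), limma adjusted p = 0.00437), and C1qb had 2.91 and 2.24 units in SF and 38.2 and 339 in FBS. MEFs had 1895 units of C1qa and 1483 of C1qb, and P1 hearts 86.9 and 62.4. Ms4a7 lay at the floor on both SF arrays and at 10.95 and 80.8 units in FBS, at least 6.14-fold lower in SF at 2 weeks and at least 45.3-fold lower at 4 weeks. Adgre1, the F4/80 antigen of macrophages, was at the floor on both SF arrays and had 2.09 and 16.1 units in FBS. Adgre1 was also at the floor in FFV, so it too passed the filter only through FBS and could not be higher in SF. It was not called and remains among the 14. Csf1r, the receptor for a macrophage growth factor, had 47.1 and 54.4 units in SF and 41.2 and 51.3 in FBS. The part of macrophages in the other differences was not tested.

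Chemokines and cytokines fell in 8 of 21 and rose in none, with medians of -0.06 and -1.71. Il33, an alarmin cytokine, had 34.7 and 42.8 units in SF and 201 and 441 in FBS (log2 difference -2.95 ± 0.22 (SE), limma adjusted p = 0.00054). Il6, the inflammatory interleukin, had 2.22 and 1.92 units in SF and 10.7 and 34.1 in FBS. Ccl2, which draws monocytes, had 41.7 and 24.2 units in SF and 77.999 and 634 in FBS. The FBS array of 4 weeks was highest for all 3, and without it 3 genes of the list were called. Cxcl2 lay at the floor on both SF arrays and at 8.499 and 269 units in FBS, at least 4.77-fold lower in SF at 2 weeks and at least 151-fold lower at 4 weeks. Complement genes fell in 5 and rose in 2 of 11. Cfb and C2, enzymes of complement activation, were the risen ones: Cfb had 10.8 and 11.7 units in SF and 2.23 and 3.25 in FBS, and C2 had 159 and 159 units in SF and 43.6 and 46.7 in FBS.

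Interferon-response genes fell in 7 and rose in 1 of 25. Psmb8, a subunit of the immunoproteasome, had 19.2 and 21.9 units in SF and 59.3 and 116 in FBS (log2 difference -2.01 ± 0.24 (SE), limma adjusted p = 0.00325). Irf1, a transcription factor, had 68.6 and 66.9 units in SF and 126 and 201 in FBS. Usp18 and Bst2 fell, with log2 differences of -1.08 and -1.12, whereas Stat2, a signal transducer of type I interferon, rose by 0.81 ± 0.17 (SE). Ifit3 fell, with a log2 difference of -1.46 ± 0.25 (SE), and was at 0.0035 when the local surround was subtracted. Ctss, a lysosomal protease of antigen-presenting cells, lay at the floor on both SF arrays and at 22.9 and 122 units in FBS, at least 12.8-fold lower in SF at 2 weeks and at least 68.2-fold lower at 4 weeks. In FFV it was at 1.83 units at 2 weeks and at the floor at 4 weeks. Ctss therefore needed the FBS arrays to pass the filter on dim genes and could not be higher in SF.

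Stress and housekeeping lists held at most 4 calls in a direction. Amino acid stress genes rose in 1 and fell in 4 of 24: Ddit3, the factor CHOP, had 1383 and 1614 units in SF and 715 and 804 in FBS, while Pycr1 and Aldh18a1, enzymes of proline synthesis, fell, with log2 differences of -0.95 and -0.84. Heat shock genes rose in 1 of 9, namely Hspb1, at 5076 and 6078 units in SF and 2692 and 4391 in FBS. Oxidative stress genes rose in 1 and fell in 2 of 17. Gpx3, a secreted peroxidase that uses selenium, had 7293 and 11138 units in SF and 4652 and 4539 in FBS, and Nqo1, a target of the factor Nrf2, had 11.5 and 11.5 units in SF and 30.3 and 25.9 in FBS. Lysosome and autophagy genes rose in 1, Gpnmb, and fell in 1 of 20. The fallen one was Ctss, which needed the FBS arrays to pass the filter on dim genes. Ribosomal protein genes fell in 2 of 21, Rps24 and Rpl14.

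Markers of further cell types were also followed in these sorted cells. Of 16 endothelial genes 2 rose: Flt1, a VEGF receptor, had 1056 and 893 units in SF and 247 and 296 in FBS, and Robo4 had 30.2 and 31.7 units in SF and 12.05 and 16.3 in FBS. Cdh5, the defining cadherin of endothelium, stayed at 2.74 to 5.01 units on the 4 arrays, and the summed endothelial level of 1303 and 1133 units in SF against 472 and 599 in FBS weighs the brightest probes most. Epicardial markers were split, with 3 risen and 4 fallen of 10. Msln, mesothelin, had 2281 and 1153 units in SF and 246 and 361 in FBS, and Aldh1a1, an enzyme that makes retinoic acid, had 966 and 1028 units in SF and 148 and 348 in FBS. Aldh1a2, the enzyme of the same step in the embryonic epicardium, fell, with 23.03 and 25.4 units in SF and 92.3 and 129 in FBS, and the epicardial factors Wt1 and Tbx18 were not called.

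Of 18 skeletal muscle markers 2 rose and 2 fell. Myl1, the light chain of fast fibres, had 3531 and 6303 units in SF and 800.2 and 1217 in FBS (log2 difference 2.26 ± 0.15 (SE), limma adjusted p = 0.000401), and Myh1, a fast myosin, had 38.1 and 31.6 units in SF and 102 and 65.97 in FBS. Smooth muscle markers rose in 2, Myh11 and Acta2, and fell in 2, Kcnj8 and Des, of 13. Neuronal markers rose in 4 and fell in 3 of 22: Nefl, a neurofilament, had 26.6 and 26.1 units in SF and 4.48 and 5.67 in FBS, against the fall of Scg2. Adipocyte markers rose in 1, Agpat2, and fell in 1, Lpl, of 10, and the rise of Agpat2 (0.75 ± 0.15 (SE)) was at -0.046 when the local surround was subtracted. Of 6 epithelial genes F11r, a tight junction protein, fell, at 600.5 and 478 units in SF and 1473 and 1358 in FBS, and both erythroid genes tested were not called.

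Genes of the medium difference were also set against hearts and MEFs, whose MEF and P1 arrays carry identifiers of another array series than the iCMs and E12 heart. Of the 253 genes that rose and were at least 2-fold up in both weeks, 27.3% were at least 2-fold higher in E12 hearts than in MEFs and 16.6% at least 2-fold lower. Of the 437 genes that fell and were at least 2-fold down in both weeks, 26.5% were higher in E12 hearts and 39.6% lower. Over all genes tested the shares were 14.1% higher and 13.9% lower. With P1 hearts in place of E12 hearts, 21.3% of the risen genes were higher and 19.8% lower in heart, and 19.2% of the fallen genes were higher and 40.3% lower. Over all genes tested the shares with P1 hearts were 12.1% higher and 16.1% lower. Fallen genes therefore lay on the MEF side more often than on the heart side, though their shares on both sides exceeded those of all genes. Risen genes also exceeded the shares of all genes on both sides, by more on the heart side. These shares have no test.

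Some genes were at least 2-fold apart in a single week and under 0.5 on the log2 scale in the other. At 2 weeks 131 such genes were higher and 62 lower in SF, and at 4 weeks 91 were higher and 345 lower. Fabp4, a fatty acid carrier of fat and endothelial cells, led those higher at 2 weeks, with 88.97 and 39.6 units in SF and 9.65 and 36.6 in FBS. Col11a1, a collagen chain, had 204 and 92.7 units in SF and 37.5 and 112 in FBS, and Aspn, a matrix proteoglycan, had 94.9 and 119.8 units in SF and 18.5 and 126 in FBS. In all 3 the FBS array of 2 weeks was the low one. Cox6a2, a heart and muscle subunit of cytochrome oxidase, was lower at 2 weeks alone, with 35.8 and 178 units in SF and 120.4 and 130.1 in FBS, and there the SF array of 2 weeks was the low one.

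At 4 weeks the 5 genes lowest in SF alone were Cxcl1, Sfrp4, Saa3, Csrnp1 and Adgre1. Cxcl1, which attracts neutrophils, had 44.2 and 16.1 units in SF and 46.1 and 375 in FBS. Sfrp4, a secreted Wnt binder, had 3.21 and 4.36 units in SF and 4.37 and 88.6 in FBS. Saa3, an acute phase protein, had 41.3 and 8.66 units in SF and 30.8 and 86.6 in FBS. The FBS array of 4 weeks was the high one for each of them, as it was for Csrnp1 and Adgre1. Adgre1 passed the filter on dim genes only through the FBS arrays, so it could not be higher in SF. Among those higher in SF at 4 weeks alone, Ppp6r3, a phosphatase subunit, had 139 and 149 units in SF and 114 and 23.03 in FBS, where the FBS array of 4 weeks was the low one. Hspb3, a small heat shock protein of muscle, had 4.30 and 11.98 units in SF and 3.56 and 1.78 in FBS, the last at the floor. None of the genes of a single week named here was called.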

How the data were processed

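Single-colour Cy5 arrays (Toray 3D-Gene, read at 635 nm per the file headers) were analysed from the table of values the authors deposited. The unit of that table was not stated and was inferred from the values: each is an intensity equal to the spot median less the trimmed mean of 2736 blank spots, scaled so that the array median is 25, and is missing for spots near the blanks. Background correction is therefore already part of the deposited values, and the scanner intensity, deposited per spot, served for alternatives. Amplification of RNA before labelling can compress or distort levels.

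The groups were those of the sample titles, with 1 array each. A gene symbol was known for 16631 of 23473 probes, and 6842 probes had no symbol. RefSeq holds 12622 of these symbols as current and gave newer ones for 3947, and 62 stayed as they were. The brightest of a gene's probes stood for each of 16390 genes, values under the floor of 1.78 were set to it, and 14872 genes above the floor on at least 2 of 6 GMT arrays and without a flagged spot were tested on the log2 scale. Medium was tested with limma 3.58.1 in R 4.3.3 (two-sided, mean-variance trend, Benjamini and Hochberg threshold 0.05), with medium and week as terms. In this balanced layout the SF minus FBS estimate is the mean of both pairs and the FFV arrays add to the estimate of the spread only. The number of arrays limits the precision. The fit was tested on simulated data. Tables were written with Python 3.11.15, pandas 2.3.3 and numpy 2.4.6.

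Named genes were a panel, the 12 highest and 12 lowest genes called and at least 2-fold apart in both weeks (ranked by the smaller difference), up to 4 members of each list with the largest mean difference, called members first, and the 5 highest and 5 lowest genes of a single week. Predicted genes were passed over, and further called members of a list are named where the list is described. The members, lists and rules were chosen with earlier results of these data known. Alternatives were other fits, other values, another treatment of low values and leaving out each array in turn.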

Additional observations from a re-analysis of the deposited data

Results flagged for a closer look

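For 5 genes the pairs of the weeks were at least 2-fold apart in opposite directions, and the difference between the weeks was not tested for any of them, since each pair holds 1 array against 1. Ccl9, a chemokine, had 47.2 and 12.3 units in SF and 17.02 and 61.1 in FBS, a log2 difference of 1.47 at 2 weeks and -2.31 at 4 weeks. Rasgef1b, a guanine nucleotide exchange factor that macrophages induce, had 217 and 211 units in SF and 97.7 and 489 in FBS, at 1.15 and -1.21. In both genes the FBS array of 4 weeks was the highest of the 4 arrays. Emilin3, a matrix glycoprotein, was at 1.78 and -1.59, and Ranbp17 was at 1.003 and -1.07, with no level above 7.18 units in either gene. Ptger2, a prostaglandin receptor, was the gene that turned the other way, at -1.05 and 1.74, with 18.4 and 42.6 units in SF and 38.1 and 12.7 in FBS.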

How the results depend on the processing

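Of 2113 genes called, 1636 were also called in a fit to the 4 SF and FBS arrays alone (1726 calls), 1626 with scanner intensities in place of the deposited values (1697 calls) and 1876 with a pseudocount of 10 (1905 calls). The count moved by over 1.5 times in other settings: 1322 genes without the week term (670 rose, 652 fell), 46 with 2 GMTMM arrays added (16 rose, 30 fell), and 0 by limma both with the local surround subtracted (2496 genes at an unadjusted p under 0.05) and without a filter on dim genes (3929 genes). The surround followed the spot on these arrays, with correlations of 0.924 to 0.966 on the log2 scale. Leaving out each array in turn gave 201 to 1731 genes, with 201 without the FBS array of 4 weeks, 553 without the SF array of 4 weeks, 672 without the FBS array of 2 weeks and 915 without the SF array of 2 weeks, where the lower side held 614 of the calls. For the listed genes, 210 calls (68 rose, 142 fell) became 11 with the GMTMM arrays, 0 by limma with the surround subtracted and without the filter, and 41 to 189 when each array was left out in turn. Of 150 named genes that were called, 55 to 134 were still called without 1 array and all 150 kept their direction, while 15 were still called with the GMTMM arrays. With the surround subtracted 4 turned direction, Gja1 to 0.018, Ndufb9 to -0.54, Ifit3 to 0.0035 and Agpat2 to -0.046.

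Genes at least 2-fold apart numbered 1168 at 2 weeks, 1602 at 4 weeks and 696 in both. They became 264, 481 and 185 with scanner intensities and an offset of 50, 546, 640 and 158 with the surround subtracted, and 510, 813 and 323 with a pseudocount of 10. Where the higher array had to reach 25, a limit chosen after seeing the data, they were 721, 1017 and 440. The share of lower genes among those 2-fold apart at 4 weeks was 68.5% in the main values and 66.9% with that limit. The fit pairs SF with FBS by week, and the 1322 genes above are those without that pairing. Dim genes are limited by signal over the blanks, and with 1 array per group no count speaks for the spread between cultures.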

Other observations

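Among the genes called and at least 2-fold apart in both weeks, some were neighbours on a chromosome, with neighbours taken as adjacent in RefSeq (GRCm38.p6) among the genes tested. Of 252 placed genes that rose, 20 stood in 11 such pairs, and of 437 that fell, 70 stood in 36 pairs, with no test. Some pairs arise in any set of this size, and their number in other sets was not counted. The counts therefore do not show that these genes cluster. Gins3 and Ndrg4, both among the 12 highest genes, are neighbours on chromosome 8, and Setd6, a lysine methyltransferase next to Ndrg4, rose too, with 250 and 315 units in SF and 83.2 and 73.9 in FBS. Cfb and C2 are neighbours that rose, and C1qa, C1qb and C1qc are neighbours that fell. The chemokines Ccl3 and Ccl4, whose annotations overlap, fell with 3.20 and 4.86 units in SF and 12.6 and 137 in FBS for Ccl3.

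A run of chymase genes known from mast cells also fell, and it was picked after its values were seen, in cells sorted for the αMHC reporter. Cma1 had 4.71 and 2.92 units in SF and 34.2 and 67.9 in FBS (log2 difference -3.70 ± 0.44 (SE)). Mcpt2 had 9.16 and 23.8 units in SF and 77.1 and 213 in FBS, and Mcpt4 had 17.0 and 21.6 units in SF and 89.1 and 176 in FBS. Kit, the receptor that defines mast cells among others, fell, at 1.78 and 2.15 units in SF and 7.04 and 11.7 in FBS. Cpa3, a mast cell protease, was not called, with 6.89 and 5.64 units in SF and 4.17 and 5.04 in FBS, and Ms4a2, a subunit of the IgE receptor, was not called either, at 3.80 and 3.89 units in SF and 4.01 and 3.56 in FBS.

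Of 2710 probes without a gene symbol whose higher array reached 25 units, 43 were at least 2-fold higher and 72 at least 2-fold lower in SF in both weeks. They were not named here.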
